A study of Arabidopsis thaliana with 9 samples.

Results

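The genes described here are 31 nuclear genes of Arabidopsis thaliana that encode the core of the photosynthetic electron transport chain without its antenna. They were taken by locus code from the 33473 genes of the deposited table and comprise 12 genes of photosystem I, 11 of photosystem II including its oxygen-evolving complex, 6 of electron carriers and 2 of the chloroplast ATP synthase. All 31 were listed, all were above 0 at every exposure, and all averaged 5 FPKM or more over the exposures, the minimum used for a comparison. RNA came from shoots of accession Col-0, 21 days old, grown at 23 °C in unbroken dim light (50 µmol m-2 s-1). Plants were put under 1000 µmol m-2 s-1 at 21 °C for 0 s, the control, for 20 s or for 60 s, and whole pots were then frozen in liquid nitrogen. Each exposure had 3 pools of at least 30 plants, 9 samples in all, but the table gives 1 FPKM value per gene and exposure. FPKM counts fragments relative to transcript length and to the number of mapped fragments. No value below therefore has an error and no difference could be tested, so that higher and lower only compare deposited values.

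Photosystem II takes electrons from water in the thylakoid lumen. The cytochrome b6f complex and the small copper protein plastocyanin pass them to photosystem I. Ferredoxin and ferredoxin-NADP+ reductase (FNR) then carry them to NADP+, and the proton gradient built on the way drives the ATP synthase. The subunits that bind the reaction centre pigments are encoded in the plastid, whereas the genes below encode imported proteins. Some of these dock partners, shield the manganese cluster or hold antenna and core together. Others carry electrons, belong to the ATP synthase or take part in assembly. All 133 chloroplast genes of the table were at 0 at every exposure, so the plastid subunits of the same complexes could not be set beside the genes below.

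Some facts of the whole table bear on these values. The summed FPKM of all genes was 817000 at 0 s, 829701 at 20 s and 858218 at 60 s. The antenna gene LHCB1.3 was listed at 0 at 0 s and made up 1.92% of the sum at 20 s and 2.21% at 60 s, so ratios within a few percent depend on how the columns are scaled. The number of reads behind the values is unknown. Of the markers of other organs, the 5 root genes summed to 0.302, 0.384 and 0.326 FPKM at 0, 20 and 60 s, with EXPA7 at 0 throughout, and the 3 floral genes summed to 0.548, 0.365 and 0.655 FPKM. The 5 epidermis and guard cell markers summed to 271, 254 and 275 FPKM and the 4 vascular markers to 112, 108 and 118 FPKM. Both sums were lowest at 20 s and highest at 60 s, but FDH (194, 184 and 200 FPKM) and SUC2 (78.3, 73.5 and 82.5 FPKM) made up most of them. FDH, KAT1, SUC2 and IRX3 had the order of the sums. ATML1, FAMA and MYB60 were lower at 60 s than at 0 s, and APL and XCP1 were higher at each step. The part of these cell types in the results below was not tested. In RNA from whole shoots, fewer cells of a type and less RNA per cell cannot be told apart.

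These genes were among the most abundant transcripts of the shoot. At 0 s, 18 of the 31 ranked within the first 50 genes of the table and 28 within the first 100. Their median level was 2009 FPKM at 0 s, 1948 FPKM at 20 s and 2144 FPKM at 60 s, whereas the tested genes as a whole had medians of 19.0, 19.2 and 19.5 FPKM. PSBR, a small subunit needed for stable binding of the oxygen-evolving proteins, was the highest at 5282, 5071 and 5641 FPKM. PETE1, the minor plastocyanin, was the lowest at 401, 417 and 467 FPKM. Together the 31 genes summed to 61721 FPKM at 0 s, 58794 FPKM at 20 s and 66759 FPKM at 60 s. These sums were 7.55%, 7.09% and 7.78% of the whole table.

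**Figure D1:**
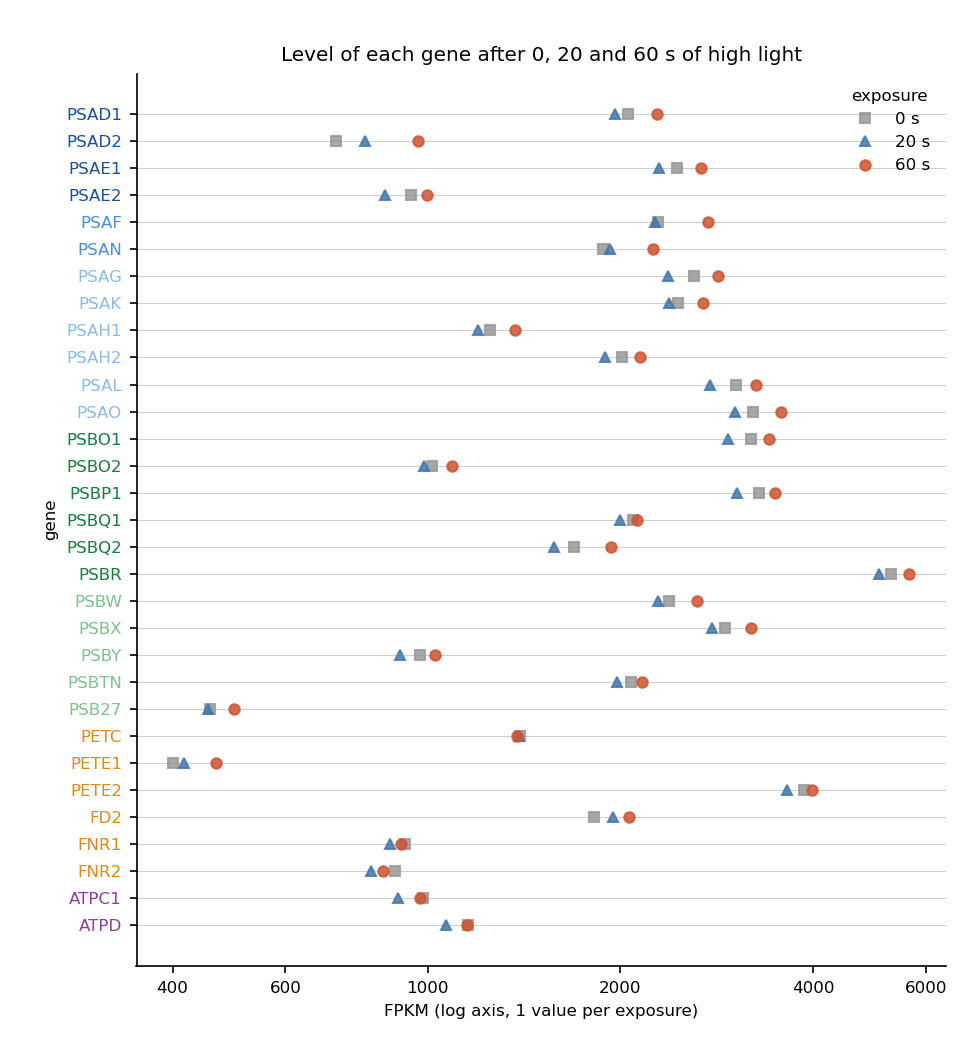
FPKM of each gene (rows, coloured by complex) on a log axis after 0 s (grey squares), 20 s (blue triangles) and 60 s (red circles) of high light, 1 deposited value per exposure with no error. Levels run between 401 and 5641 FPKM, and the 60 s value lies to the right of the 20 s value in every gene except PETC.

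Differences between exposures were small and leaned the same way in most of the genes. At 20 s against 0 s, 27 of the 31 were lower, beside 51.5% of the 13946 tested genes, 4 were higher, beside 48.5%, and the median log2 ratio was -0.08 (all tested genes -0.00). Of the 31, 26 were higher at 60 s than at 0 s, beside 54.6% of all tested genes, and 5 were lower, beside 45.4%, with a median log2 ratio of 0.10 (all tested genes 0.01). When the columns were given the same distribution by quantile normalization, 14 were higher, beside 45.4% of all tested genes, 13 lower and the median was 0.00. With LHCB1.3 left out before that step, 18 were higher, beside 45.6%, 11 lower and the median was 0.01. Between 60 s and 20 s, 30 were higher at 60 s, beside 57.6%, and 1 was lower, beside 42.4%. The median was 0.18 (all tested genes 0.02). After quantile normalization 21 were higher, beside 53.2% of all tested genes, 6 lower and the median was 0.06. Ratios here and below are log2 of FPKM + 1, and the 3 comparisons share columns, so they do not bear on each other independently. Quantile normalization sets each value by its rank in the column, so a gene of unchanged rank gets a ratio of exactly 0.

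The differences were small in size. A log2 ratio of at least 0.32 was reached by 0 members at 20 s against 0 s, beside 5.10% of all tested genes, and by 0 members in the lower direction, beside 2.00%. PSAD2 was the 1 member past 0.32 at 60 s against 0 s (5.35% of all tested genes), and 0 members were as much lower (2.42%). Between 20 s and 60 s no member passed 0.32 in either direction (2.98% of all tested genes were higher and 4.07% lower by that much). A 2-fold difference was reached by 0 members in any comparison. Of all tested genes, 0.559% were at least 2-fold higher and 0.143% lower at 20 s against 0 s, 0.538% higher and 0.186% lower at 60 s against 0 s, and 0.143% higher and 0.237% lower at 60 s against 20 s.

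Abundant genes in general also lay lower at 20 s. Among the 255 genes that averaged 400 FPKM or more, members included, 71.0% were lower and 29.0% higher at 20 s than at 0 s. Of the same genes, 51.4% were higher and 48.6% lower at 60 s than at 0 s, and 65.1% were higher and 34.9% lower at 60 s than at 20 s.

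**Figure D2:**
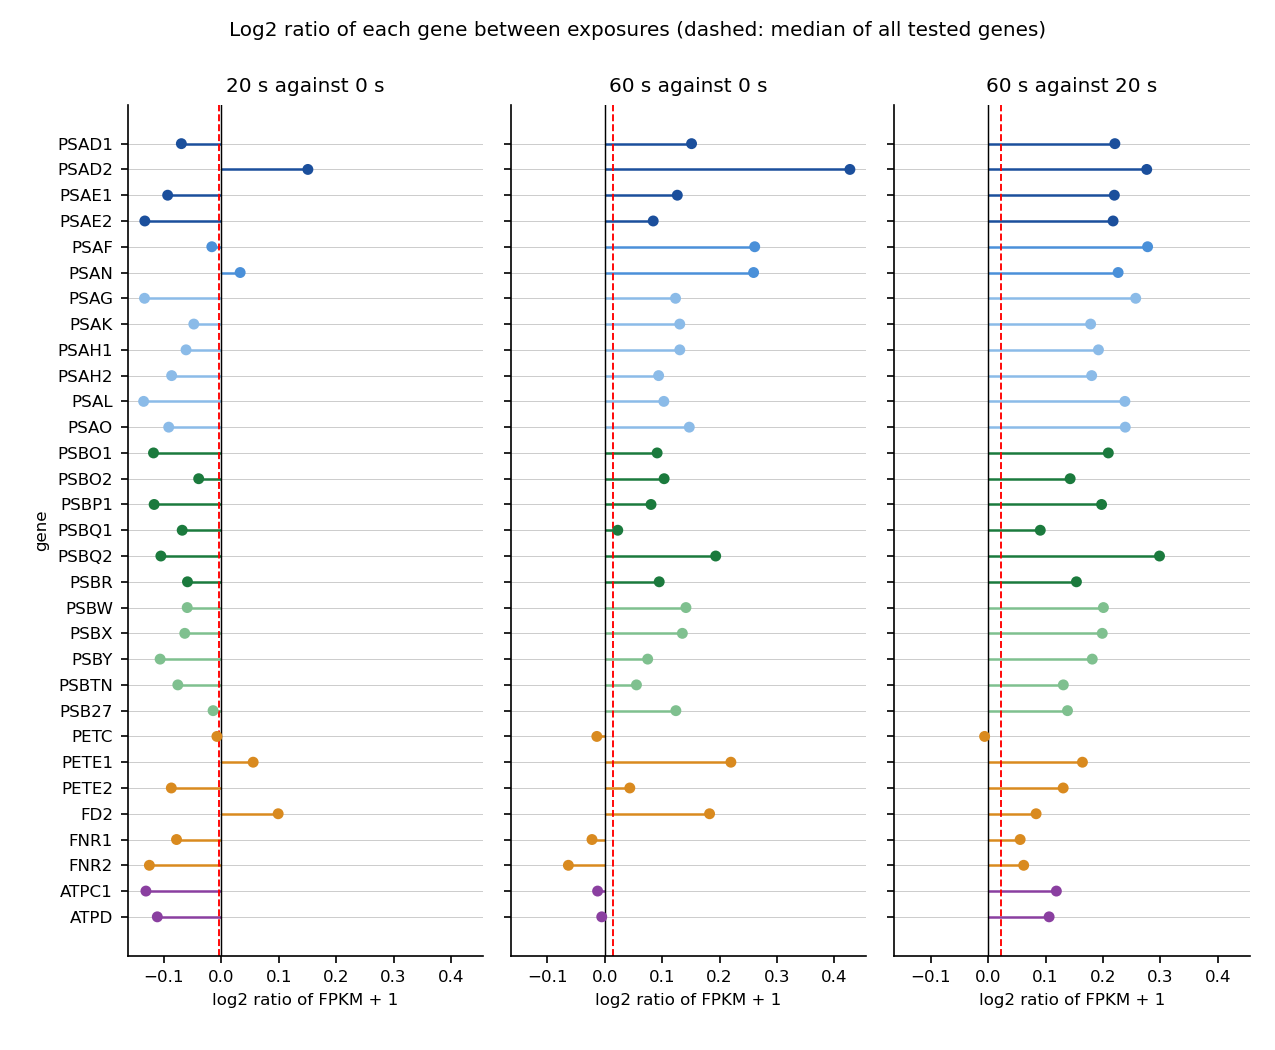
Log2 ratio of FPKM + 1 for each gene (rows, coloured by complex) at 20 s against 0 s, 60 s against 0 s and 60 s against 20 s, with the median of all tested genes dashed; no error can be drawn. Most points lie left of 0 in the first panel and right of it in the others, PSAD2 stands out at 0.43 at 60 s against 0 s, and PETC, FNR1, FNR2, ATPC1 and ATPD lie just below 0 there.

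Photosystem I had all 12 genes higher at 60 s than at 0 s, beside 51.4% of the 255 abundant genes, with a median log2 ratio of 0.13. After quantile normalization 8 were higher, 2 equal and 2 lower (PSAL and PSAO). When LHCB1.3 was first left out, 10 were higher, 1 equal and 1 lower (PSAL). On its reducing side, PSAD and PSAE form the docking site for ferredoxin. PSAD2, 1 of 2 genes for the PSAD subunit, stood at 719 FPKM at 0 s, 799 FPKM at 20 s and 967 FPKM at 60 s, a 1.34-fold difference between 60 s and 0 s and the highest ratio of the 31 (log2 0.43). It was also the highest at 20 s against 0 s, at 1.11-fold (log2 0.15). Its partner PSAD1 had 2056, 1960 and 2283 FPKM, so that its 20 s value was the lowest of the 3. The PSAE genes followed the order of PSAD1, with PSAE1 at 2452, 2298 and 2676 FPKM and PSAE2 at 942, 859 and 999 FPKM.

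On the lumenal side PSAF, which helps plastocyanin bind, had 2287, 2261 and 2741 FPKM, a log2 ratio of 0.26 at 60 s against 0 s. PSAN, which acts at the same face, had 1881, 1924 and 2251 FPKM and likewise a ratio of 0.26. After PSAD2 these were the highest ratios of the 31 at 60 s against 0 s, while at 20 s both genes lay close to their 0 s level (PSAF -1.13%, PSAN 2.31%).

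The 6 membrane subunits were alike. PSAG and PSAK flank the core where antenna proteins attach, and PSAL, PSAH and PSAO form the side used when mobile antenna binds photosystem I. All 6 were lower at 20 s than at 0 s (log2 ratios -0.14 to -0.05), beside 71.0% of the 255 abundant genes. At 60 s all 6 were higher than at 0 s (0.09 to 0.15), beside 51.4%. After quantile normalization 3 were higher, 2 lower and 1 equal at 60 s. When LHCB1.3 was first left out, 4 were higher, 1 lower and 1 equal at 60 s, and 5 were lower and 1 equal at 20 s. PSAL had the lowest ratio of all 31 genes at 20 s, with 3032 FPKM at 0 s, 2761 FPKM at 20 s and 3256 FPKM at 60 s (log2 -0.14 at 20 s against 0 s). PSAG stood next to it with 2604, 2374 and 2837 FPKM, and PSAO was the most abundant of the 6 with 3215, 3018 and 3561 FPKM. PSAK had 2460, 2380 and 2694 FPKM. The PSAH genes had 1253, 1201 and 1372 FPKM (PSAH1) and 2009, 1892 and 2144 FPKM (PSAH2).

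Photosystem II genes showed the same order of exposures, 11 of 11 being lower at 20 s and 11 of 11 higher at 60 s than at 0 s (medians -0.07 and 0.09). Among the 255 abundant genes, 71.0% were lower at 20 s and 51.4% higher at 60 s. The counts were 9 and 4 of 11 after quantile normalization, and 7 and 5 of 11 when LHCB1.3 was first left out. They were 11 and 9 of 11 with each column divided by its sum, and 9 and 11 of 11 with ratios centred on the 255 abundant genes. The oxygen-evolving complex shields the manganese cluster that splits water. PSBO1, its main stabilising protein, had 3197 FPKM at 0 s, 2946 FPKM at 20 s and 3406 FPKM at 60 s. PSBP1, which retains the calcium and chloride needed for the reaction, had 3293, 3037 and 3483 FPKM. PSBO2, a minor form of PSBO, had 1016, 989 and 1092 FPKM.

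PSBQ, the smallest of the extrinsic trio, is encoded by a pair of genes that differed. PSBQ2 had 1693, 1574 and 1936 FPKM, and its log2 ratio of 0.30 at 60 s against 20 s (1.23-fold) was the highest of the 31. PSBQ1 had 2092, 1996 and 2125 FPKM and a ratio of 0.09 in the same comparison. Over all 6 genes of the oxygen-evolving complex the summed level at 60 s was 13.3% above that at 20 s and 6.69% above that at 0 s. These differences were 9.49% and 1.57% with each column divided by its sum, and 9.81% and 3.87% when that sum left out LHCB1.3. After quantile normalization 4 of the 6 were lower at 60 s than at 0 s (median log2 ratio -0.07, or -0.03 when LHCB1.3 was first left out). The quantile-normalized median at 60 s against 20 s was 0.00.

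The small subunits and PSB27 stayed close together. PSBW, which takes part in assembling photosystem II with its antenna, had 2383, 2288 and 2629 FPKM, and PSBX had 2908, 2783 and 3194 FPKM. PSBY had 974, 905 and 1026 FPKM and PSBTN 2079, 1972 and 2160 FPKM. Each had its lowest value at 20 s and its highest at 60 s, an order seen in 32.5% of the 255 abundant genes. PSB27, a lumenal factor of photosystem II assembly and repair rather than a subunit of the mature complex, had the lowest level of the group at 458, 454 and 499 FPKM and differed by -0.98% at 20 s against 0 s.

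Electron carriers and ATP synthase were less uniform, with 3 of 8 higher at 60 s than at 0 s. Of the 255 abundant genes 51.4% were higher, and of all tested genes 54.6%. The count in this group was 2 of 8 after quantile normalization and 3 of 8 when LHCB1.3 was first left out. In the deposited values these 8 genes held all 5 members that were lower. PETC, the nuclear-encoded Rieske iron-sulfur protein of cytochrome b6f, had 1395, 1387 and 1382 FPKM, so that its 3 values were almost equal. It was the single gene of the 31 without a higher value at 60 s than at 20 s (log2 -0.01). Major plastocyanin PETE2, listed in the reference as DRT112, had 3869, 3643 and 3988 FPKM. Leaf ferredoxin FD2 (FED A) stood apart from it with 1818.5, 1948 and 2064 FPKM, the second highest ratio at 20 s against 0 s (log2 0.10) and 0.18 at 60 s.

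FNR, which hands electrons from ferredoxin to NADP+, was lower at both exposures. FNR2 had 890 FPKM at 0 s, 816 FPKM at 20 s and 851 FPKM at 60 s and the lowest log2 ratio of the 31 at 60 s against 0 s (-0.06). FNR1 had 922, 873 and 908 FPKM (-0.02 at 60 s) and the next lowest. Both were among the 3 lowest ratios at 60 s against 20 s as well, at 0.06 each. The ATP synthase genes ATPC1, for the regulatory gamma subunit, and ATPD, for the delta subunit of the stator, had 983, 898 and 975 FPKM and 1156, 1070 and 1152 FPKM. ATPC1 differed by -8.69% and ATPD by -7.43% at 20 s against 0 s, and by -0.85% and -0.36% at 60 s against 0 s, so both were lower at 20 s and near their 0 s level at 60 s.

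Summed over their genes, the complexes differed in how 60 s compared with 0 s, and the size of the difference depended on the scaling. Photosystem I summed to 24911 FPKM at 0 s, 23727 FPKM at 20 s and 27781 FPKM at 60 s, 11.5% higher at 60 s than at 0 s, or 6.17% higher with each column divided by its sum. For photosystem II the sums were 25376, 24015 and 27191 FPKM, a difference of 7.15%, or 2.00% as a share of the column sum. Carriers and ATP synthase together had 11434, 11052 and 11787 FPKM, a difference of 3.08% that turned to -1.87% as a share of the column sum. As shares of the column sum without LHCB1.3, the differences of photosystem I, photosystem II and this last group were 8.57%, 4.31% and 0.354%. At 20 s against 0 s the same sums differed by -4.75%, -5.36% and -3.34%, and by -6.21%, -6.81% and -4.82% as shares. As shares without LHCB1.3 they differed by -4.37%, -4.98% and -2.95%.

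In 7 cases 2 of the 31 genes encode forms of the same protein, so the balance between copies can be followed. The weaker copy gave 25.9% of the PSAD pair at 0 s, 29.0% at 20 s and 29.8% at 60 s (PSAD2). PSBQ2 gave 44.7%, 44.1% and 47.7% of its pair, and PETE1 gave 9.39%, 10.3% and 10.5%. The remaining pairs moved less than PSAD2 and PSBQ2. PSAE2 gave 27.8%, 27.2% and 27.2%, PSAH1 gave 38.4%, 38.8% and 39.0%, PSBO2 gave 24.1%, 25.1% and 24.3%, and FNR2 gave 49.1%, 48.3% and 48.4%.

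**Figure D3:**
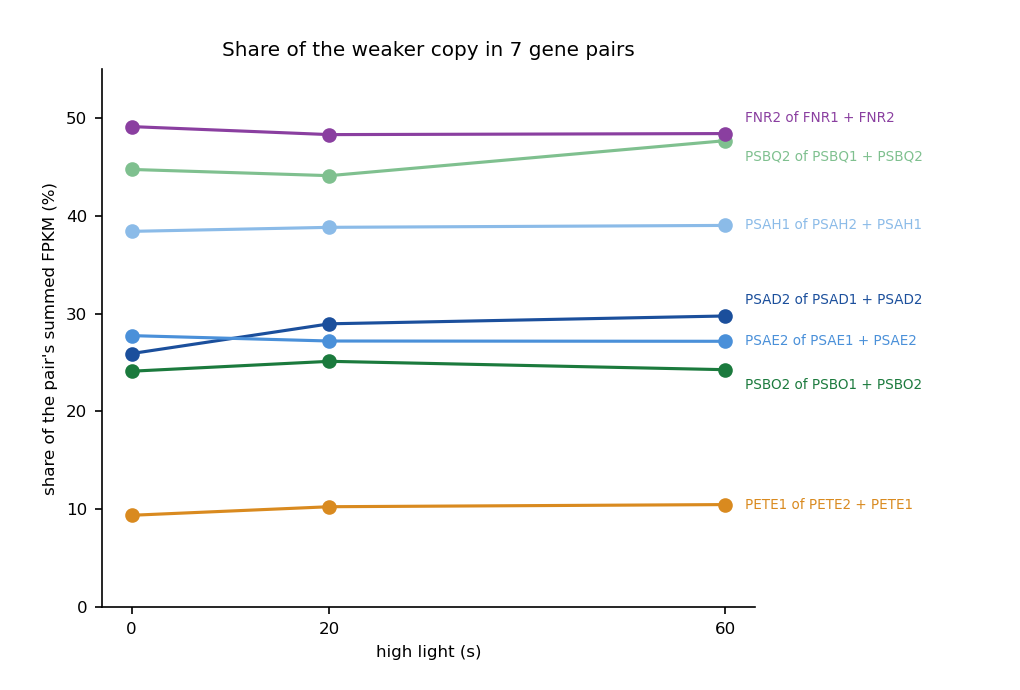
Share of the weaker copy in the summed FPKM of 7 gene pairs (vertical axis, percent) against the time in high light (horizontal axis, s), 1 value per point with no error. The share of PSAD2 goes up between 0 s (25.9%) and 60 s (29.8%) and that of PSBQ2 between 20 s (44.1%) and 60 s (47.7%), while the line for PSAH1 is almost flat.

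Reads from near-identical copies can be assigned to either gene, so the coding sequences of the pairs were compared in the RefSeq annotation of assembly TAIR10.1. Aligned bases were 88.0% identical for PSAD1 and PSAD2, 86.99% for PSAH2 and PSAH1, 83.6% for PSBO1 and PSBO2, 79.7% for PSBQ1 and PSBQ2, and between 74.6% (PETE2 and PETE1) and 79.0% (PSAE1 and PSAE2) for the other pairs. No coding word of 50 bases was shared within any pair. The longest shared runs measured 35 bases in PSAD, 32 in PSBO and 31 in PSBQ. Sources used here do not give the read length, so how many reads fit both copies was not tested.

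The coding stretches around the longest shared runs of the PSAD and PSBQ genes are shown because the copies' log2 ratios lay furthest apart in the PSAD pair at 60 s against 0 s (0.28) and in the PSBQ pair at 60 s against 20 s (0.21). They are printed in the coding direction, with bases that differ between the copies in capitals, at chr4:1229377-1229471 (minus strand), chr1:753658-753752 (minus strand), chr4:11335140-11335230 (plus strand) and chr4:2672500-2672590 (minus strand) of TAIR10.1, each within a coding exon.
PSAD1: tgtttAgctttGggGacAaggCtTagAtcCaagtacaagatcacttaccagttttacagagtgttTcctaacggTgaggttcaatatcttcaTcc
PSAD2: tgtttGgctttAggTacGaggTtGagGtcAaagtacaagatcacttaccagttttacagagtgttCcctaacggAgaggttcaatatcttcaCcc
PSBQ1: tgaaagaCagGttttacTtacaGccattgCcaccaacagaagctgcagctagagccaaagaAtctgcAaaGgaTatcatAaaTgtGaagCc
PSBQ2: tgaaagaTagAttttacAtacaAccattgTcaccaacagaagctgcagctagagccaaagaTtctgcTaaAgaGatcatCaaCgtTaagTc
The PSAD stretches differ at 11 of 95 bases and the PSBQ stretches at 13 of 91, on both sides of the shared run.

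As genes the 31 were short and rich in G and C. Median coding length was 570 bases (351 to 1122), against 1047 bases for 27444 protein-coding genes of the annotation, and median GC content of the coding sequence was 50.1% against 44.1%. Of the 31, 12 had a single exon, beside 5501 of the 27444 protein-coding genes, while FNR1 and FNR2 had 9 exons each. They are spread over all 5 chromosomes, with 14 on chromosome 1 and 8 on chromosome 4, and the shares of all genes per chromosome were not counted. In the deposited table the loci of PSAE2, PSAH1, PSBR and FNR1 overlap another listed gene, and as strand handling is not stated, reads of the overlapping genes may not be told apart in their values. On the table's own coordinates, which its submitters' processing notes place on TAIR9, PSAD2 (AT1G03130) lies on chromosome 1 at 753307 to 754198, PSBQ2 (AT4G05180) on chromosome 4 at 2671822 to 2673243 and FNR2 (AT1G20020) on chromosome 1 at 6942717 to 6945018, and FPKM values summarise whole genes, exons together.

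The 250 bases before each annotated start in TAIR10.1 were searched on both strands for the G-box CACGTG and the I-box GATAAG, motifs known from promoters of light-regulated plant genes, and for TATAAA. A G-box was found before 6 of the 31 genes (19.4%), namely PSAE2, PSAH2, PSBQ1, PSBQ2, PSBTN and ATPD, and in 6.49% of 27438 windows of that length before protein-coding genes. An I-box was found before 8 (25.8%), namely PSAD1, PSAF, PSAK, PSAH2, PSBQ2, PETC, PETE2 and FNR1, and in 12.3% of all windows. TATAAA was found before 15 (48.4%) and in 47.4% of all windows. In no member did 2 of these motifs overlap, and 15 of the 31 windows reach into an exon of another gene, a share not counted over all windows. A match is a description of the letters and no evidence of binding.

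Windows are printed for PSBQ2, the highest ratio at 60 s against 20 s, PSAF, the highest at 60 s against 0 s after PSAD2, whose window reaches into an exon of another gene, and FNR2, the lowest at 60 s against 0 s. They run 5′ to 3′ towards the gene, with G-box and I-box matches in capitals, at chr4:2673244-2673493 (minus strand), chr1:11216142-11216391 (minus strand) and chr1:6942375-6942624 (plus strand) of TAIR10.1.
PSBQ2: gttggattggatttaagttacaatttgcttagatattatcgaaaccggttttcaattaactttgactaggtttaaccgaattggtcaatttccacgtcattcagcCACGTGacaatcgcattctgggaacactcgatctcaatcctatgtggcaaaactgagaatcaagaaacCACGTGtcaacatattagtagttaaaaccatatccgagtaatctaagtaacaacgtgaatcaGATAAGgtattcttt
PSAF: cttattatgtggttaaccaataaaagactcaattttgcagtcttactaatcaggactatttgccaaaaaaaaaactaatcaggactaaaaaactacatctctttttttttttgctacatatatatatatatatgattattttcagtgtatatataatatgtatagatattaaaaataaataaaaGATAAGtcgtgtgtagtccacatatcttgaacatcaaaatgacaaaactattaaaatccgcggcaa
FNR2: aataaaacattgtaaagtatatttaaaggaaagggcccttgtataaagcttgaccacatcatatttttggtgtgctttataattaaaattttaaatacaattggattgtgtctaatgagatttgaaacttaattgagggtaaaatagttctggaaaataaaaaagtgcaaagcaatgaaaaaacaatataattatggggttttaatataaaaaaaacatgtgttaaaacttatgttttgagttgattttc
The PSBQ2 window holds 2 G-boxes and 1 I-box, that of PSAF holds 1 I-box, and that of FNR2 holds neither. Windows were picked by ratio, and whether motifs go with ratios over all members was not tested. PSBQ1 also holds 2 G-boxes, with a log2 ratio of 0.09 at 60 s against 20 s. FNR1, with -0.02 at 60 s against 0 s, holds 1 I-box, and PSAD2, with the highest ratio there (0.43), holds neither.

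Other nuclear genes of the same pathway were set beside them, in lists of 46 genes of which 45 reached 5 FPKM. Of the 45, 20 were higher and 25 lower at 60 s than at 0 s, beside 54.6% and 45.4% of all tested genes. The median log2 ratio was -0.01. At 20 s against 0 s 41 of 45 were lower (median -0.10), beside 51.5% of all tested genes. At 60 s against 20 s 38 were higher (median 0.07), beside 57.6%. Among 11 carrier and ATP synthase genes outside the 31, the highest ratio at 60 s against 0 s was that of PGRL1B, of cyclic electron flow around photosystem I, with 33.7, 32.3 and 37.1 FPKM (log2 0.13). The lowest was that of the ferredoxin-like gene FDC2 with 85.1, 81.3 and 77.7 FPKM (-0.13).

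The chloroplast NDH complex, which returns electrons to plastoquinone around photosystem I, had 16 of 16 subunits lower at 20 s (median -0.11), beside 51.5% of all tested genes. With ratios centred on the 255 abundant genes 13 of 16 were lower. The lowest ratio was that of NDHT at 48.2, 37.6 and 42.9 FPKM. By 60 s 10 of the 16 were lower and 6 higher than at 0 s, beside 45.4% and 54.6% of all tested genes. The highest was NDHS at 103, 100.1 and 122 FPKM. Of 18 assembly and regulatory genes, 9 were higher and 9 lower at 60 s than at 0 s, beside the same shares. Their highest ratio was that of PSBP2, a weakly expressed relative of PSBP1 at 6.65, 8.80 and 10.03 FPKM (log2 0.53), and their lowest that of Y3IP1, a photosystem I assembly factor, at 130, 114 and 109 FPKM (-0.25).

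Antenna and carbon fixation genes lay on either side of the 31 at 60 s. Of 20 Calvin cycle genes, 4 were higher and 16 lower at 60 s than at 0 s, beside 54.6% and 45.4% of all tested genes. Median log2 ratios at 60 s against 0 s were 0.10 for the 31, 0.17 for 6 LHCA genes of the photosystem I antenna, 0.29 for 8 LHCB1 to LHCB3 genes without LHCB1.3, and -0.09 for the 20 Calvin cycle genes. Quantile normalization brought these medians to 0.00, 0.01, 0.15 and -0.11, or to 0.01, 0.04, 0.18 and -0.08 when LHCB1.3 was first left out. At 20 s against 0 s the same medians were -0.08, -0.09, -0.05 and -0.07. For 60 s against 20 s they were 0.18, 0.26, 0.35 and -0.01 as deposited, and 0.06, 0.08, 0.19 and -0.06 after quantile normalization. With 1 value per exposure none of these differences between lists could be tested.

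**Figure D4:**
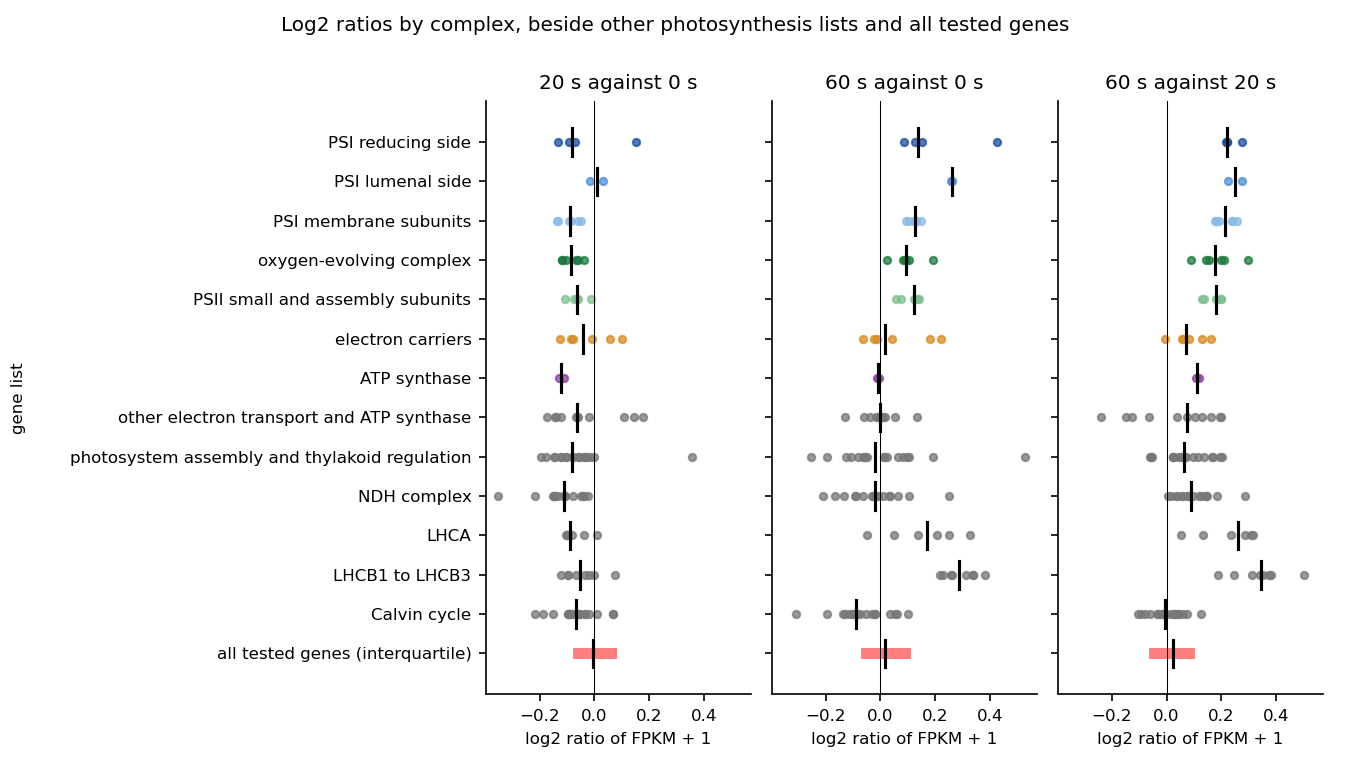
Log2 ratios of FPKM + 1 by complex (coloured, the 31 genes) and in other photosynthesis lists (grey), 1 point per gene with the list median as a black bar, and the interquartile range of all tested genes in red; LHCB1.3 is left out. At 60 s against 0 s the photosystem lists lie right of 0, LHCB1 to LHCB3 lie further right (median 0.29) and Calvin cycle genes lie left (median -0.09).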

How the data were processed

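RNA-seq of 9 shoot samples was summarised by the authors in a deposited table of FPKM, 1 value per gene and exposure, per the file headers. TopHat, Bowtie, Cufflinks and the TAIR9 build are named in the submitters' processing notes. The sources used here do not give tool versions, how pools were combined, the normalization between exposures, strand handling or depth. The 3 columns were matched to exposures by name and 0 were left unmapped. Table starts were shifted by 1 to count from 1.

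Ratios are log2((a + 1)/(b + 1)) over the 13946 genes averaging 5 FPKM or more, without error or test, as was planned for a table with 1 value per exposure. The ratio step was tested on simulated data. The 31 members, the other lists, the log2 limit of 0.32 and the rule for named genes (the 3 highest and 3 lowest ratios per comparison, the 7 pairs, and the extremes of each other list) were chosen with earlier results of these data known. All 129 list entries matched RefSeq locus tags. Sequences and gene models are from RefSeq, assembly TAIR10.1, found by locus tag; coding sequences were aligned globally with Biopython 1.88. Python 3.11.15, pandas 2.3.3, numpy 2.4.6 and matplotlib 3.10.9 were used.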

Additional observations from a re-analysis of the deposited data

How the results depend on the processing

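Counts of higher members were 4, 26 and 30 of 31 at 20 s against 0 s, 60 s against 0 s and 60 s against 20 s, and pseudocounts of 0.1 and 10 FPKM, both other filters (none, or 50 FPKM on average) and centring on the median of all tested genes gave the same counts. Dividing each column by its sum left 4, 23 and 30, beside 41.5%, 35.3% and 42.4% of all tested genes. Doing so without LHCB1.3 left 4, 25 and 30, beside 50.3%, 43.6% and 43.7%. The median log2 ratio at 60 s against 0 s was then 0.03 and 0.06, against 0.10 as deposited. With 27 members whose loci overlap no other gene, 4, 23 and 26 were higher. Quantile normalization gave 6, 14 and 21, beside 42.6%, 45.4% and 53.2% of all tested genes. There, 1 member passed a log2 ratio of 0.32 in size at 20 s (0 as deposited). At 60 s 2 passed it (1 as deposited), each set against 0 s. The added member past it was PSBR (log2 -1.01 in both), which ranked 2 at 0 s and 4 at 20 s and at 60 s among all genes. Quantile normalization without LHCB1.3 gave PSBR -0.06 in both, and 0 and 1 members past 0.32 at 20 s and 60 s. It gave 6, 18 and 21 higher members, beside 42.8%, 45.6% and 53.2% of all tested genes. Centring on the median of genes averaging 400 FPKM or more gave 8 higher members at 20 s, beside 65.6% of all tested genes. These last alternatives were chosen after seeing the data, and the cause of the remaining shifts was not tested. No paired analysis was possible because the table has 1 column per exposure and none per pool, and leaving out a pool was not run for the same reason. Depth is unknown, so counting error could not be given.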

Other observations

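Within the 31 genes, the ratio was set beside the level. Across the genes, which are not independent replicates and share 3 columns, Pearson's r between the log2 ratio and log2 mean FPKM was -0.28 for the first comparison (20 s against 0 s), 0.01 for 60 s over 0 s and 0.28 for 60 s over 20 s (n = 31 genes, a description without a test).

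By the position of their 3 values, 22 of the 31 were lowest at 20 s and highest at 60 s, and FNR1, FNR2, ATPC1 and ATPD were lowest at 20 s with 60 s between. PSAD2, PSAN, PETE1 and FD2 were higher at each step, and PETC was lower at each. The first of these orders was seen in 19.5% of all tested genes and in 32.5% of the 255 that averaged 400 FPKM or more. Lowest at 20 s with 60 s between was seen in 16.5% and 18.8%, and higher at each step in 21.4% and 13.7%. Each of these 2 orders held 12.9% of the 31. The order of PETC was not counted apart over all genes.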
